A study of Homo sapiens with 16 samples.

Results

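The genes described here build the actin cytoskeleton or, in the case of SRF, control its transcription. There were 33 of them among the 58676 gene identifiers counted: 3 actins, 4 filament cross-linkers, 5 members of the calponin family, 4 tropomyosins with caldesmon, 5 chains of non-muscle myosin II, 3 linkers of focal adhesions, 4 LIM domain proteins, 3 regulators of actin monomers and filament ends, and SRF itself. The set was chosen by a measured value, since ACTB and ACTG1 were lower in treated SUM159 cells. Values of these genes in SUM159 are therefore given as a description, without p-values, and where genes past the threshold are counted in that line nothing is read from the count. Tests are read for A549, whose values the rule of choice does not name. Earlier results of these data, A549 among them, were known when the set was chosen, so A549 is not fully independent of the choice.

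RNA was measured in 2 human cell lines, A549 from a lung cancer and SUM159 from a triple-negative breast cancer. Cells received no drug or were treated for 16 h with 2 µM palbociclib, an inhibitor of the cell cycle kinases CDK4 and CDK6, with 3 µM indisulam, which directs the splicing factor RBM39 to degradation, or with the combination at the same doses. Each of the 8 groups held 2 libraries, 16 in all, which the study describes as technical duplicates. Each tumour type is represented by 1 line, and p-values measure only the spread between such duplicates.

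Actin exists as monomers, which bind profilin and cofilin, and as filaments, which tropomyosins coat, alpha-actinins and filamins cross-link, myosin II pulls on, and talin, vinculin and zyxin couple to integrins. SRF is a transcription factor that binds the CArG box of many of these genes together with the cofactors MRTFA and MRTFB. Monomeric actin retains these cofactors in the cytoplasm, so that filament assembly releases them and feeds back on the transcription of actin and its partners.

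The CArG box is shown here because it is the element through which SRF binds. It was searched in RefSeq promoter windows on GRCh38.p14, from 250 bases before to 50 bases after each transcript start, as CC, then 6 bases that are A or T, then GG, on both strands. Windows were held for 30 of the 33 genes (none for ACTB, TAGLN and MYL9), and 7 of these (23.3%) had the box, against 438 of 27305 genes (1.6%). The box of each is printed in capitals with 10 bases on either side, in the direction of the gene.
ACTG1, chr17:81512874-81512903, minus strand: ggaaagatcgCCATATATGGacatgttctg
ACTN1, chr14:68977718-68977747, minus strand: acgctcatgtCCAAAAATGGtaacattcat
TPM4, chr19:16067355-16067384, plus strand: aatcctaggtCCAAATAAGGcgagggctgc
CNN2, chr19:1026509-1026538, plus strand: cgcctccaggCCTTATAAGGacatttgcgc
FLNA, chrX:154374709-154374738, minus strand: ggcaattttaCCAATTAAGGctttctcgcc
FHL2, chr2:105399091-105399120, minus strand: gcgtgcatctCCTTATATGGtcaaatgaca
FHL2, chr2:105438595-105438624, minus strand: aatctggagaCCTTAAAAGGcacgtgggag
SRF, chr6:43171229-43171258, plus strand: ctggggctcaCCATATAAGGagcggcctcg
SRF, chr6:43171249-43171278, plus strand: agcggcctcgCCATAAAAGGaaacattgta

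The boxes began between 10 and 173 bases before a transcript start. SRF carried a pair of boxes in 1 window, closest to its start, and the 2 boxes of FHL2 lay in the windows of 3 of its 4 starts. The MCAT element, GGAATG on either strand, was found for 11 of the 30 genes (36.7%), against 16.7% of all genes. A match describes letters and not a site in use. The genes were grouped in part as targets of SRF, so their higher share with the CArG box is no independent result. They also had more windows per gene, 54 for 30 genes against 35116 for 27305 genes, which leaves more room for either match.

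Between 18306636 and 34075588 reads were assigned to genes in a library, at which 3 counts correspond to 0.088 to 0.164 CPM, the unit of level used here (counts relative to library size). This floor covers counting error only. Untreated A549 cells had the epithelial keratins KRT8 and KRT18 at 4832 to 5283 CPM, while the lung markers NKX2-1, SFTPB and SFTPC reached at most 0.155 CPM. Untreated SUM159 cells had PGR at 0 and ESR1 at 0.386 and 0.431 CPM, and the mesenchymal marker VIM at 3966 to 4144 CPM. Other markers separated the lines to different degrees. With all 16 libraries scaled together, CDH1 was at 81.7 and 83.5 CPM in untreated A549 and 0.136 and 0.317 CPM in untreated SUM159. KRT19 and EPCAM were also higher in A549, 446-fold and 105-fold, and COL1A1 and PDGFRB in SUM159, 211-fold and 253-fold. The lower of both lines was near the floor for CDH1, KRT19, EPCAM and PDGFRB. On the same scale ERBB2 was at 92.6 and 95.7 CPM in untreated SUM159 and 114 and 110 CPM in untreated A549. On that scale SUM159 also had KRT8 and KRT18 at 420 to 597 CPM, and A549 had VIM at 961 and 955 CPM. The smooth muscle genes DES, MYH11 and MYOCD were at most at 0.193 CPM in the untreated libraries of both lines. Smoothelin (SMTN), also a smooth muscle marker, stood at 17.8 and 18.0 CPM in untreated A549 and at 6.81 and 6.19 CPM with the combination. The endothelial marker PECAM1 moved in SUM159 from 19.5 and 17.4 CPM to 37.0 and 38.9 CPM with the combination, and its part in the results was not tested. In bulk RNA, fewer cells that express a gene and less RNA per cell cannot be told apart.

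The genes differed widely in level before treatment. Per kilobase of annotated exon, and with all 16 libraries scaled together, ACTB was the highest of them in both lines, with a mean of 1266 CPM per kb in A549 and 1861 CPM per kb in SUM159. ACTG1 followed with 932 and 1128 CPM per kb, and PFN1, which encodes the monomer-binding protein profilin, with 802 and 572 CPM per kb. At the other end stood TAGLN with 0.374 and 1.26 CPM per kb. CNN1, the calponin of smooth muscle, ran from 0 to 0.0517 CPM in the libraries of A549 and from 0.0355 to 0.118 CPM in those of SUM159. It was not tested, which left 32 genes tested in each line.

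Some genes set the lines apart. LIMA1, which encodes the filament-binding LIM protein eplin, was 9.69-fold higher in untreated SUM159 than in untreated A549, with 151 and 152 CPM against 16.6 and 14.6 CPM. The heavy chain MYH9 was 3.15-fold higher in SUM159 and TAGLN was 3.36-fold higher. In the other direction, PDLIM5, a LIM protein of the Z-disc and of stress fibres, was 8.96-fold higher in A549, with 754 and 761 CPM against 83.5 and 85.5 CPM. FLNC, the filamin of muscle, was 4.02-fold higher in A549, and ACTA2, the actin of smooth muscle, was 2.87-fold higher. SRF was 1.86-fold higher in SUM159. No test was made of these differences.

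**Figure D1:**
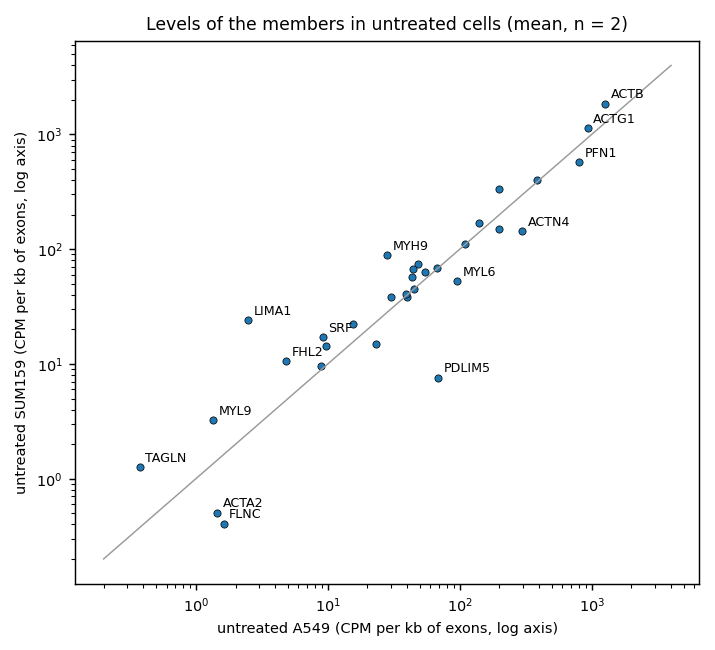
Mean level of each of the 32 genes in untreated A549 (horizontal axis) and untreated SUM159 (vertical axis), in CPM per kilobase of exon on log axes, n = 2 libraries; the grey line marks equal levels. LIMA1 lies 9.69-fold above the line and PDLIM5 lies 8.96-fold below it, while ACTB and ACTG1 are the highest in both lines.

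The 33 genes took a smaller share of all gene counts in treated than in untreated cells. In A549 the share was 2.16% and 2.13% in the untreated libraries and between 1.91% and 2.01% in the 6 treated ones. In SUM159 it was 2.70% and 2.76% in the untreated libraries and between 2.45% and 2.55% in the treated ones. No treated library reached an untreated one of the same line. ACTB and ACTG1, the genes behind the choice, are part of this share, so nothing is read from it in SUM159. There ACTB alone held 0.819% and 0.827% untreated and 0.719% to 0.801% treated, and ACTG1 0.454% and 0.463% against 0.311% to 0.388%. In A549 ACTB held 0.527% and 0.518% untreated and 0.407% to 0.486% treated, and ACTG1 0.361% and 0.347% against 0.294% to 0.348%.

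The first question was how many of the genes changed with each treatment in A549. A gene was called changed at an edgeR adjusted p under 0.05, with adjustment over all genes tested. Palbociclib changed 14 of the 32 genes, 4 higher and 10 lower. Of all 15744 genes tested, 43.2% were called, 22.0% higher and 21.1% lower. Indisulam changed 18 genes, 3 higher and 15 lower, against a background of 49.2% (23.3% higher and 25.9% lower). The combination changed 25 genes, 10 higher and 15 lower, where 57.8% of all genes were called (27.4% higher and 30.4% lower). In each comparison the share of these genes called lower was above that of all genes, and no test of that difference was made. Scaling to total counts gave 6 higher and 8 lower with palbociclib, and 5 higher and 12 lower with indisulam. For the combination it lost the lower calls of TAGLN2 and PDLIM7 and added CNN3 and VCL as higher. With that scaling, 62.4%, 52.0% and 57.7% of the calls over all genes were higher, for palbociclib, indisulam and the combination.

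The changes in A549 were mostly small. The median absolute log2 change of the tested genes was 0.16 with palbociclib, 0.14 with indisulam and 0.23 with the combination, below the 0.24, 0.28 and 0.36 of all genes. Changes of at least 0.5 on the log2 scale were called for 1, 7 and 7 genes, while 16.2%, 22.1% and 30.5% of all genes passed that limit. The median log2 change was -0.05, -0.13 and -0.08 in the same order, and 0.03, 0.01 and 0.00 over all genes.

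In SUM159, the line of the choice, the same threshold marked 7 genes as higher and 14 as lower with palbociclib (21 in all). With indisulam it marked 4 as higher and 19 as lower (23), and for the combination 6 and 18 (24). Of the 16080 genes tested there, palbociclib changed 54.5% (25.5% up and 29.0% down), indisulam 46.9% (21.9% up and 24.9% down) and the combination 65.3% (32.2% up and 33.1% down). Changes of at least 0.5 were marked for 2, 2 and 5 genes, beside 22.5%, 16.6% and 34.1% of all genes. Because the rule used these libraries, nothing is read from these counts. Scaling to total counts, which moved the median of all genes by up to 0.148 in SUM159, gave 12 higher and 10 lower calls for palbociclib. For indisulam the split was 5 and 10, and for the combination 11 and 11. Over all genes, 62.4%, 57.8% and 64.3% of the calls with that scaling were higher, for palbociclib, indisulam and the combination.

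**Figure D2:**
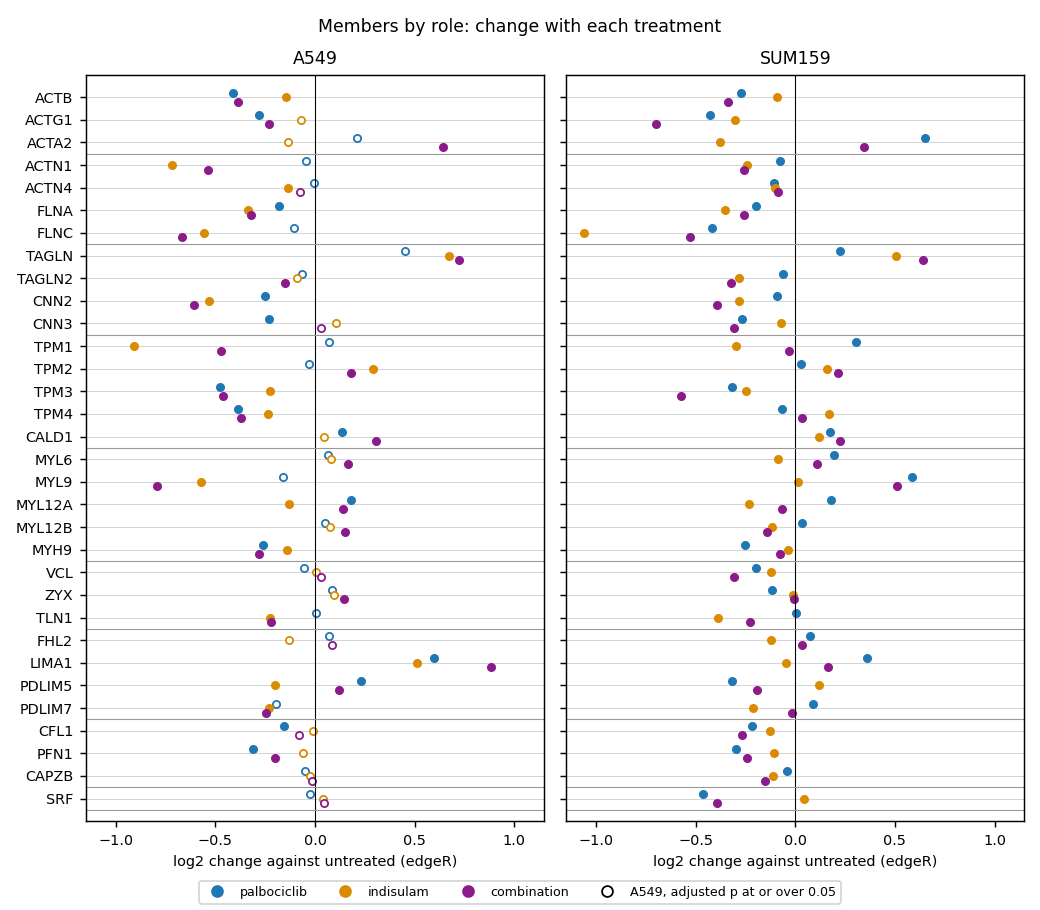
Log2 change against untreated cells (horizontal axis, edgeR) of each of the 32 tested genes, ordered by role (vertical axis), in A549 (left) and SUM159 (right) for palbociclib (blue), indisulam (orange) and the combination (purple). Open points mark an adjusted p at or over 0.05 in A549, SUM159 carries no test, and most points lie within 0.5 of no change, with LIMA1, TAGLN and ACTA2 reaching furthest up in A549 and TPM1 furthest down.

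The cytoplasmic actins were lower with palbociclib and with the combination in both lines. ACTB encodes beta-actin (ENSG00000075624, chromosome 7, 5526409 to 5563902, GRCh38). In A549 its level was 5436 and 5348 CPM in untreated cells, 4101 and 4019 CPM with palbociclib, 4860 and 4871 CPM with indisulam, and 4114 and 4128 CPM with the combination. Every treated library lay below both untreated ones, and the palbociclib and combination libraries lay together, below those with indisulam. ACTB fell by 0.41 on the log2 scale with palbociclib (SE 0.0368, edgeR adjusted p 5.32e-07), by 0.15 with indisulam (SE 0.0367, adjusted p 0.00396) and by 0.39 with the combination (SE 0.0368, adjusted p 4.46e-07). In SUM159, where the gene helped to choose the set, the values were 8687 and 8681 CPM untreated, 7174 and 7228 CPM with palbociclib, 8160 and 8113 CPM with indisulam, and 6832 and 6901 CPM with the combination, log2 differences of -0.27, -0.09 and -0.34.

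ACTG1 encodes gamma-actin (ENSG00000184009, chromosome 17, 81509413 to 81523847). In A549 it measured 3720 and 3580 CPM untreated, 2914 and 3103 CPM with palbociclib, 3466 and 3487 CPM with indisulam, and 3248 and 2973 CPM with the combination. It fell by 0.28 with palbociclib (SE 0.0476, edgeR adjusted p 0.000274) and by 0.23 with the combination (SE 0.0476, adjusted p 0.000786). The change with indisulam was -0.07 and did not pass (adjusted p 0.238). In SUM159 ACTG1 measured 4817 and 4866 CPM untreated, 3619 and 3573 CPM with palbociclib, 3953 and 3896 CPM with indisulam, and 2953 and 3019 CPM with the combination. The log2 differences there were -0.43, -0.30 and -0.70, so that the order of size between both cytoplasmic actins was the opposite of that in A549. The difference between lines was not tested.

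The coding sequences of the actins are shown because reads of one could be counted for another. The first 30 bases of each follow, with capitals where a base differs from ACTB, or has no counterpart in it, when the whole coding sequences are aligned.
ACTB: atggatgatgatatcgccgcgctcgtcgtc
ACTG1: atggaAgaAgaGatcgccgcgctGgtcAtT
ACTA2: atgTGTGAAgaAgaGgaCaGcAcTgcCTtG

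Over the 1128 coding bases that ACTB and ACTG1 each have, 91.2% were identical in the alignment, and the longest identical stretch was 59 bases. The coding sequence of ACTA2 has 1134 bases, was 81.7% identical to ACTB and shared at most 32 in a row. The annotated pseudogenes named after members, 89 among the identifiers counted, together held 0.0366% to 0.0835% as many counts as the 33 members. Those of ACTG1 held 0.0197% to 0.0668% of the ACTG1 counts.

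ACTA2, a marker of smooth muscle and of myofibroblasts, was a rare transcript in both lines. In A549 its level was 8.32 and 7.44 CPM untreated, 9.56 and 8.85 CPM with palbociclib, 7.62 and 6.73 CPM with indisulam, and 13.2 and 11.4 CPM with the combination. Only the combination passed the test, with a rise of 0.64 (SE 0.118, edgeR adjusted p 0.000311). ACTA2 thus moved opposite to ACTB and ACTG1 in this comparison. Its gene lies across FAS, STAMBPL1 and ACTA2-AS1 on the other strand, and the strand setting of the counting is not stated. In SUM159 it was 3.18 and 2.83 CPM untreated, 4.13 and 5.22 CPM with palbociclib, 2.05 and 2.55 CPM with indisulam, and 3.49 and 4.18 CPM with the combination.

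**Figure D3:**
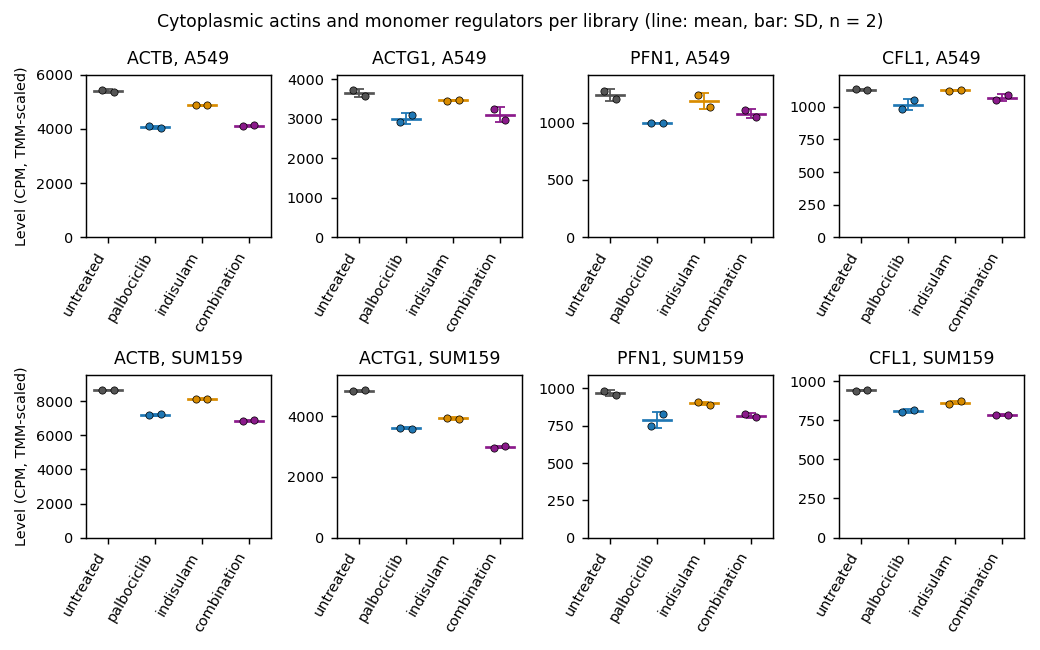
Level in CPM (vertical axis, from 0, TMM-scaled) of ACTB, ACTG1, PFN1 and CFL1 in each library of A549 (top) and SUM159 (bottom), by treatment (horizontal axis); points are libraries, the line is the mean and the bar the SD of n = 2. The palbociclib and combination libraries of ACTB and PFN1 lie below both untreated ones in each line.

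The proteins that bind monomers and filament ends were next. PFN1, which loads monomers for filament growth, fell by 0.31 in A549 with palbociclib, from 1275 and 1206 CPM to 998 and 999 CPM (SE 0.0473, edgeR adjusted p 9.56e-05). With the combination it fell by 0.20, to 1108 and 1048 CPM (SE 0.0473, adjusted p 0.00204), and with indisulam the change of -0.06 did not pass (adjusted p 0.298). CFL1 encodes cofilin 1, which severs filaments. It fell by 0.15 with palbociclib, from 1133 and 1131 CPM to 986 and 1049 CPM (SE 0.0401, adjusted p 0.00644), and with total-count scaling this call was lost (-0.09, adjusted p 0.0695). CAPZB, a subunit of the protein that caps filament ends, passed in no comparison in A549, with changes between -0.05 and -0.02. In SUM159 the log2 differences with the combination were -0.24 for PFN1, -0.27 for CFL1 and -0.15 for CAPZB.

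All 4 cross-linkers fell in A549 with indisulam, although the ACTN4 call did not hold in every setting. The same comparison called 49.2% of all genes, 25.9% of them all as lower, and the group was not tested against that share. ACTN1 encodes alpha-actinin 1, which bundles filaments in stress fibres. In A549 it was at 428 and 412 CPM untreated, 412 and 402 CPM with palbociclib, 255 and 256 CPM with indisulam, and 293 and 285 CPM with the combination. Palbociclib libraries were thus next to untreated ones, and both groups with indisulam lay far below. ACTN1 fell by 0.72 with indisulam (SE 0.0392, edgeR adjusted p 3.31e-09) and by 0.54 with the combination (SE 0.0391, adjusted p 2.55e-08), and its change with palbociclib was -0.05 (adjusted p 0.369). In SUM159 the differences of ACTN1 were -0.08, -0.24 and -0.26, in the order palbociclib, indisulam and combination, from 584 and 583 CPM untreated to 493 and 493 CPM with indisulam.

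FLNA, the filamin of most tissues, fell in A549 with each treatment, by 0.18 with palbociclib (SE 0.0531, edgeR adjusted p 0.0125), by 0.34 with indisulam (adjusted p 0.000122) and by 0.32 with the combination (adjusted p 0.000117). Its untreated level was 2043 and 2108 CPM and its level with indisulam 1640 and 1650 CPM. The palbociclib call was lost with total-count scaling (adjusted p 0.0940), without untreated replicate 2 (adjusted p 0.0898) and without palbociclib replicate 1 (adjusted p 0.0784). FLNC was at 14.1 and 15.05 CPM untreated, 13.2 and 13.7 CPM with palbociclib, 9.07 and 10.7 CPM with indisulam, and 9.98 and 8.30 CPM with the combination. It fell by 0.56 with indisulam (SE 0.111, adjusted p 0.000839) and by 0.67 with the combination (SE 0.114, adjusted p 0.000156). In SUM159 FLNC was at 3.18 and 4.74 CPM untreated and 2.05 and 1.77 CPM with indisulam, a log2 difference of -1.06, the largest in size among the tested genes of the set. ACTN4, the other alpha-actinin, fell by 0.14 in A549 with indisulam (adjusted p 0.0221), a call lost without either untreated library (adjusted p 0.153 and 0.0647), without indisulam replicate 2 (0.188) and with total-count scaling (0.0651).

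The tropomyosins, coiled-coil proteins that lie along the filament and govern which partners bind it, did not move together. TPM1 had the largest fall of the set in A549 with indisulam. Its level there was 328 and 334 CPM untreated, 358 and 337 CPM with palbociclib, 177 and 177 CPM with indisulam, and 232 and 245 CPM with the combination. TPM1 fell by 0.91 with indisulam (SE 0.0436, edgeR adjusted p 1.02e-09) and by 0.47 with the combination (SE 0.0430, adjusted p 2.81e-07), and its change with palbociclib was 0.07 (adjusted p 0.216). In SUM159 TPM1 was at 239 and 224 CPM untreated, 283 and 287 CPM with palbociclib, 187 and 189 CPM with indisulam, and 231 and 221 CPM with the combination, with the combination libraries among the untreated ones.

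TPM2 moved the other way with indisulam in A549, from 348 and 332 CPM to 419 and 413 CPM, a rise of 0.29 (SE 0.0466, edgeR adjusted p 0.000133). With the combination it rose by 0.18 (adjusted p 0.00430), a call lost without untreated replicate 2 (0.0551) or combination replicate 1 (0.0693). TPM3 was lower with every treatment. It fell from 591 and 578 CPM to 428 and 412 CPM with palbociclib, 503 and 496 CPM with indisulam, and 418 and 430 CPM with the combination, by 0.48, 0.23 and 0.46 (adjusted p 1.52e-07, 0.000211 and 1.04e-07). In SUM159 TPM3 had log2 differences of -0.32, -0.25 and -0.57. TPM4, the short tropomyosin of most non-muscle cells, fell in A549 by 0.39, 0.24 and 0.37 (adjusted p 2.06e-06, 0.000198 and 1.57e-06).

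CALD1 encodes caldesmon, which binds tropomyosin-coated filaments. It rose by 0.31 in A549 with the combination, from 145 and 149 CPM to 185 and 179 CPM (SE 0.0438, edgeR adjusted p 2.92e-05). A rise of 0.13 with palbociclib (adjusted p 0.0228) was lost with DESeq2 (0.117), without a filter on low counts (0.0536), without either untreated library (0.161 and 0.0706) and without palbociclib replicate 1 (0.149). Of the 5 genes of this group in A549, palbociclib raised 1 and lowered 2, indisulam raised 1 and lowered 3, and the combination raised 2 and lowered 3. The same comparisons called 43.2%, 49.2% and 57.8% of all genes.

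**Figure D4:**
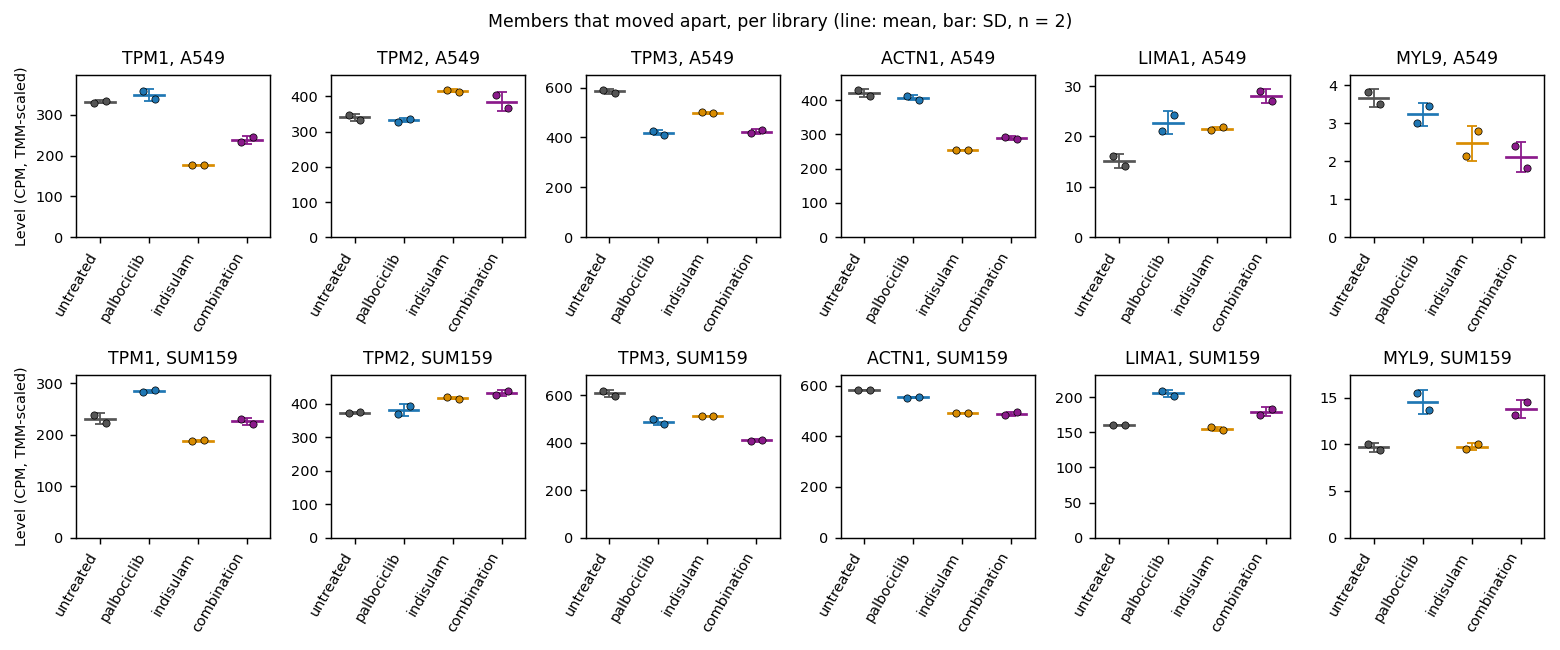
Level in CPM (vertical axis, from 0, TMM-scaled) of TPM1, TPM2, TPM3, ACTN1, LIMA1 and MYL9 in each library of A549 (top) and SUM159 (bottom), by treatment (horizontal axis); points are libraries, the line is the mean and the bar the SD of n = 2. In A549 TPM1 drops from 328 and 334 CPM to 177 and 177 CPM with indisulam while TPM2 rises, and MYL9 is lower with the combination in A549 and higher with it in SUM159.

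In the calponin family, CNN2 fell and TAGLN rose in A549 with indisulam. CNN2, the calponin of non-muscle cells, was at 159 and 148 CPM untreated, 130 and 128 CPM with palbociclib, 109 and 104 CPM with indisulam, and 101 and 100 CPM with the combination. No treated library reached an untreated one, and the levels of the 3 treatments did not overlap. CNN2 fell by 0.25 (SE 0.0467, edgeR adjusted p 0.000565), 0.53 (SE 0.0475, adjusted p 5.22e-07) and 0.61 (SE 0.0479, adjusted p 5.89e-08). In SUM159 its log2 differences were -0.09, -0.28 and -0.39 in the same order.

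TAGLN encodes transgelin, another smooth muscle marker, and was a rare transcript in A549. Its level was 1.81 and 2.93 CPM untreated, 3.59 and 2.96 CPM with palbociclib, 4.19 and 3.28 CPM with indisulam, and 3.82 and 3.94 CPM with the combination. The rises of 0.67 with indisulam (SE 0.224, edgeR adjusted p 0.0226) and 0.72 with the combination (SE 0.225, adjusted p 0.0130) rested on untreated replicate 1. Without it they were 0.36 (adjusted p 0.270) and 0.40 (adjusted p 0.187). The indisulam call was also lost without indisulam replicate 1 (0.48, adjusted p 0.183), and both were lost with DESeq2 (0.0977 and 0.0576). The gene overlaps PCSK7 on the other strand. In SUM159, with more transcript, TAGLN was at 9.21 and 8.24 CPM untreated, 10.0 and 10.3 CPM with palbociclib, 12.6 and 12.2 CPM with indisulam, and 13.3 and 13.9 CPM with the combination. All treated libraries there lay above both untreated ones.

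The remaining calponin genes changed less. TAGLN2 fell by 0.15 in A549 with the combination (SE 0.0442, edgeR adjusted p 0.00878), a call lost with total-count scaling (adjusted p 0.248) and without untreated replicate 1 (0.0637). CNN3, the acidic calponin, fell by 0.23 with palbociclib, from 121 and 116 CPM to 99.4 and 103 CPM (SE 0.0435, adjusted p 0.000588), and had 0.10 with indisulam and 0.03 with the combination, neither of which passed. In SUM159 the combination differences were -0.32 for TAGLN2 and -0.31 for CNN3.

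Myosin II pulls on actin filaments through heavy chains and a pair of light chain types. MYH9, the main heavy chain of most non-muscle cells, fell in A549 by 0.26 with palbociclib (SE 0.0382, edgeR adjusted p 6.58e-05), by 0.14 with indisulam (adjusted p 0.00641) and by 0.28 with the combination (adjusted p 1.96e-05), from 456 and 469 CPM untreated to 385 and 376 CPM with the combination. The indisulam call was lost without untreated replicate 2 (0.0757) or indisulam replicate 1 (0.0780). In SUM159 MYH9 had log2 differences of -0.25, -0.04 and -0.08.

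The regulatory light chain MYL9 was again a rare transcript in A549. Its level was 3.82 and 3.49 CPM untreated, 3.01 and 3.45 CPM with palbociclib, 2.14 and 2.80 CPM with indisulam, and 2.39 and 1.83 CPM with the combination. It fell by 0.79 with the combination (SE 0.205, edgeR adjusted p 0.00416). The fall of 0.57 with indisulam (adjusted p 0.0260) was lost with DESeq2 (0.151), without either untreated library (0.143 and 0.0574) and without indisulam replicate 1 (0.209). In SUM159 MYL9 went the other way, from 9.98 and 9.34 CPM untreated to 15.5 and 13.7 CPM with palbociclib and 13.1 and 14.5 CPM with the combination, and it measured 9.50 and 10.0 CPM with indisulam.

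The light chain genes with higher expression changed little in A549. MYL12A, a regulatory chain, rose by 0.18 with palbociclib (SE 0.0428, edgeR adjusted p 0.00367), fell by 0.13 with indisulam (adjusted p 0.0199) and rose by 0.14 with the combination (adjusted p 0.0130). Its neighbour MYL12B, which encodes a nearly identical protein, rose by 0.15 with the combination (adjusted p 0.00580), and the essential chain MYL6 by 0.17 (adjusted p 0.0109). Counts of MYL12A and MYL12B are uncertain as far as reads could be assigned to either. Those of MYL6 are uncertain too, as it overlaps MYL6B on its own strand and SMARCC2 on the other. Without untreated replicate 2 none of the combination calls of MYL12A, MYL12B and MYL6 was kept (0.0870, 0.0719 and 0.0715), and that of MYL12A was also lost without combination replicate 2 (0.0607). The MYL12A fall with indisulam was lost with total-count scaling (0.0520), without either untreated library (0.142 and 0.0556) and without indisulam replicate 2 (0.234).

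Of the linkers at focal adhesions, TLN1, which encodes the integrin activator talin, fell in A549 by 0.23 with indisulam, from 415 and 443 CPM to 359 and 374 CPM (SE 0.0416, edgeR adjusted p 0.000438), and by 0.22 with the combination (adjusted p 0.000374). With palbociclib its change was 0.01 (adjusted p 0.930). VCL, the gene of vinculin, passed in no comparison in A549, at -0.06, 0.00 and 0.03. ZYX, the gene of zyxin, rose by 0.15 with the combination (adjusted p 0.0109), a call lost without untreated replicate 2 (0.0817) or combination replicate 1 (0.141). In SUM159 TLN1 measured 452 and 500 CPM untreated and 362 and 364 CPM with indisulam, a log2 difference of -0.39, and VCL had -0.20, -0.12 and -0.31.

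Of the LIM domain genes, LIMA1 rose in A549 with every treatment. It was at 16.1 and 14.1 CPM untreated, 21.1 and 24.3 CPM with palbociclib, 21.3 and 21.8 CPM with indisulam, and 28.9 and 27.0 CPM with the combination. All treated libraries lay above both untreated ones, and those of the combination lay above all others. The rises were 0.60 (SE 0.0919, edgeR adjusted p 0.000111), 0.51 (SE 0.0941, adjusted p 0.000444) and 0.88 (SE 0.0919, adjusted p 1.17e-06). In SUM159, where LIMA1 was far more abundant, it had 161 and 160 CPM untreated, 210 and 203 CPM with palbociclib, 157 and 153 CPM with indisulam, and 175 and 184 CPM with the combination.

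PDLIM5 rose by 0.23 in A549 with palbociclib, from 730 and 735 CPM to 866 and 853 CPM (SE 0.0366, edgeR adjusted p 0.000146). With indisulam it fell by 0.20, to 629 and 644 CPM (SE 0.0368, adjusted p 0.000397). With the combination it was 0.12 above untreated cells (adjusted p 0.0112), a call lost without untreated replicate 1 (0.0657) or combination replicate 1 (0.0665). In SUM159 the signs were the reverse, with -0.32, 0.12 and -0.19. PDLIM7, a LIM protein of the same family, fell in A549 by 0.23 with indisulam (adjusted p 0.0284) and by 0.25 with the combination (adjusted p 0.0175). The indisulam call was lost without any 1 of the 4 libraries compared (0.125, 0.0987, 0.115 and 0.134), and the combination call without either untreated library (0.0830 and 0.0643) or combination replicate 2 (0.214). With total-count scaling both were lost (0.0619 and 0.123). FHL2, a LIM-only cofactor of transcription, passed in no comparison in A549, with changes between -0.13 and 0.08.

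The message of SRF itself did not pass the test in A549. It measured 37.7 and 37.8 CPM untreated, 36.1 and 37.8 CPM with palbociclib, 38.8 and 38.8 CPM with indisulam, and 39.7 and 38.0 CPM with the combination. The log2 changes were -0.03 (SE 0.0579, edgeR adjusted p 0.749), 0.04 (SE 0.0585, adjusted p 0.589) and 0.04 (SE 0.0589, adjusted p 0.554). In SUM159 SRF was at 76.3 and 77.1 CPM untreated, 55.2 and 55.9 CPM with palbociclib, 82.2 and 76.3 CPM with indisulam, and 59.6 and 57.1 CPM with the combination. The libraries with palbociclib, alone or in the combination, thus lay below both other groups, with log2 differences of -0.47 and -0.39, and those with indisulam alone differed by 0.05. SRF overlaps no other annotated gene. The difference between the lines was not tested.

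The 7 genes with a CArG box were described beside the 22 tested genes whose windows had none. The search took only exact matches in these windows, so boxes with other letters or further away were missed. The 22 genes are therefore not a group without SRF sites, and the difference between both groups was not tested. In A549 their median log2 change was -0.18 against -0.02 with palbociclib, -0.24 against -0.08 with indisulam, and -0.32 against 0.01 with the combination. In SUM159 the medians were -0.09 and -0.05, -0.24 and -0.11, and -0.26 and -0.11. Within the 7, FHL2 and SRF did not pass in A549, while the other 5 (ACTG1, ACTN1, TPM4, CNN2 and FLNA) fell with the combination. Of all genes, the combination called 57.8% as changed and 30.4% as lower. TPM1, with the largest fall under indisulam, had no box in its window.

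For each gene, the log2 changes of both single drugs were added up and subtracted from that of the combination. In A549 this difference passed for 4 of the 32 genes, all with a positive value, while 3.53% of all genes passed, 1.49% positive and 2.05% negative. For TPM1 it was 0.37 (SE 0.0608, edgeR adjusted p 0.00678), with single-drug changes of 0.07 and -0.91 and a combination change of -0.47. The level of TPM1 with the combination thus lay between those of the single drugs. The other 3 were ACTN1 with 0.23 (SE 0.0551, adjusted p 0.0371), TPM3 with 0.24 (SE 0.0542, adjusted p 0.0266) and TPM4 with 0.25 (SE 0.0562, adjusted p 0.0248), each of which fell less with the combination than both drugs added up. Leaving out either indisulam library left 0 genes called, and leaving out combination replicate 2 gave 8. ACTA2 had the largest difference of the set in A549, 0.56, which did not pass (SE 0.167, adjusted p 0.0813). In SUM159, as a description, FLNA with 0.29 was past the threshold, where 4.38% of all genes were called (2.22% positive and 2.16% negative). FLNC had the larger value of 0.95 there and was not past it, and ACTG1 had 0.03.

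**Figure D5:**
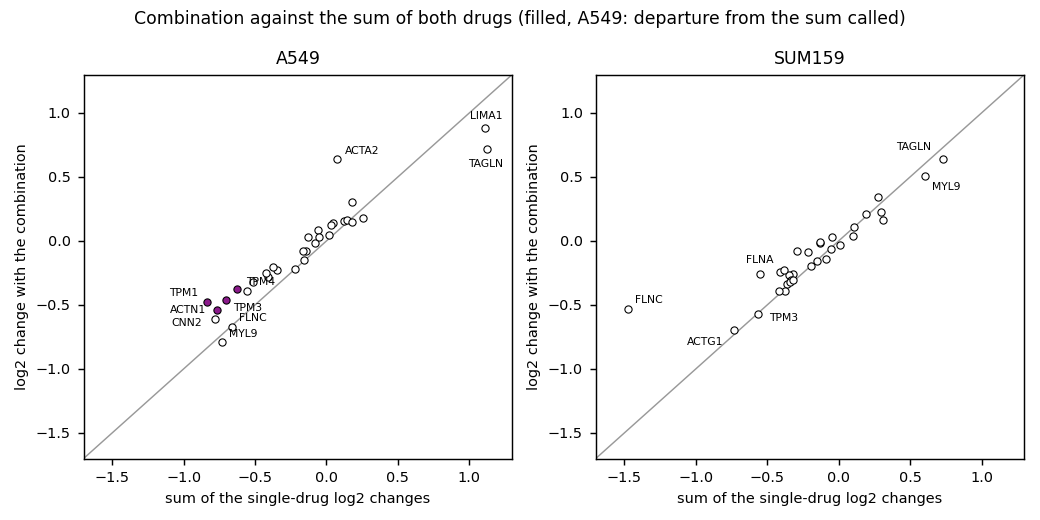
Log2 change with the combination (vertical axis) against the sum of the log2 changes with palbociclib and with indisulam (horizontal axis) for the 32 tested genes in A549 (left) and SUM159 (right); the grey line marks equality and filled points in A549 differ from it at an adjusted p under 0.05. TPM1, ACTN1, TPM3 and TPM4 lie 0.23 to 0.37 above the line in A549, and ACTG1 lies on it in SUM159.

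Both lines can be set side by side by whether the 2 treated libraries lay outside the range of the 2 untreated ones, on the TMM scale. With palbociclib, 12 of the 33 genes lay below in both lines, 6 lay above in both and 3 lay on opposite sides, beside 27.6%, 24.4% and 7.31% of the 14122 genes tested in both lines. With indisulam the numbers were 15, 3 and 6, beside 26.1%, 24.7% and 10.0%. With the combination they were 12, 6 and 5, beside 29.1%, 25.0% and 13.1%. As SUM159 was used for the choice, nothing is read from these counts. Below in both lines with each of the treatments were ACTB, CNN2 and TPM3, among others. The 6 above in both with the combination were TAGLN, LIMA1, CALD1, TPM2, MYL6 and ACTA2.

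The surrounding pathway was read from lists of other genes in A549, with the same test. These lists, too, were chosen with earlier results known. Of all genes, palbociclib changed 43.2% (22.0% higher and 21.1% lower), indisulam 49.2% (23.3% and 25.9%) and the combination 57.8% (27.4% and 30.4%). No list was tested against these shares. Of the 6 tested SRF cofactors and ternary complex factors, 0 rose and 4 fell with palbociclib, 1 rose with indisulam, and 2 rose and 1 fell with the combination. MRTFA rose by 0.29 with indisulam (edgeR adjusted p 0.000834) and by 0.33 with the combination (adjusted p 0.000220), and ELK1, a ternary complex factor, fell by 0.31 with palbociclib (adjusted p 0.00520). SCAI had the largest called change of the list, a fall of 0.36 with palbociclib (adjusted p 0.0327).

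Other reported targets of MRTF and SRF went in both directions. Of the 13 tested, 5 rose and 3 fell with palbociclib, 4 rose and 5 fell with indisulam, and 5 rose and 4 fell with the combination. Beside them, 43.2%, 49.2% and 57.8% of all genes were called. ANKRD1, a nuclear ankyrin repeat protein that is also a YAP target, rose by 0.84, 0.91 and 1.53 (edgeR adjusted p 0.000280, 0.000142 and 2.43e-07). CCN2, a secreted matrix protein, rose by 0.92, 0.37 and 0.75 (adjusted p 1.76e-06, 0.00624 and 1.05e-05). CSRP2, a LIM protein of smooth muscle, fell by 1.19, 0.70 and 2.14 (adjusted p 2.12e-05, 0.00124 and 1.45e-07), and the myosin heavy chain MYH10 fell by 0.66, 0.49 and 1.00 (adjusted p 9.92e-08, 2.42e-06 and 7.20e-10). Of the 6 tested immediate early genes of SRF, 1, 1 and 2 fell and none rose, with NR4A1 falling by 0.77, 0.28 and 0.89 (adjusted p 4.55e-06, 0.0130 and 7.22e-07).

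Of 22 genes of actin nucleation and turnover, 5 rose and 5 fell with palbociclib, 7 rose and 1 fell with indisulam, and 7 rose and 3 fell with the combination. Beside these, 43.2%, 49.2% and 57.8% of all genes were called, and nothing particular to the list is read from the counts. GSN, the gene of the severing protein gelsolin, rose by 0.67 with palbociclib (adjusted p 1.11e-05).

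Integrins and their adaptors couple filaments to the matrix. Of 17 such genes tested, 7 rose and 1 fell with palbociclib, 3 rose and 8 fell with indisulam, and 5 rose and 6 fell with the combination. The shares of all genes called were 43.2%, 49.2% and 57.8%. The kinase-like adaptor ILK fell by 1.28 with indisulam (edgeR adjusted p 4.68e-10) and by 1.23 with the combination (adjusted p 1.36e-10). The collagen receptor chain ITGA2 rose by 0.44 with palbociclib (adjusted p 0.000143) and fell by 1.496 with indisulam (adjusted p 4.01e-09) and by 0.81 with the combination (adjusted p 5.81e-07).

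The tubulins, subunits of microtubules, had larger median changes than the actin cytoskeleton genes. In A549, 1 of 11 rose and 8 fell in each comparison, where 43.2%, 49.2% and 57.8% of all genes were called. The median log2 changes were -0.90, -0.24 and -1.12, beside the -0.05, -0.13 and -0.08 of the actin cytoskeleton genes. TUBA1B fell by 1.59 with palbociclib (edgeR adjusted p 8.00e-13) and by 1.79 with the combination (adjusted p 1.49e-13), while TUBA1A rose by 1.31 with the combination (adjusted p 1.38e-10). Tubulin genes are close paralogues, and their counts are uncertain as far as reads could be assigned to more than 1 of them.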

How the data were processed

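16 mRNA libraries were sequenced. The authors deposited, for every library, unnormalized counts of the reads assigned to each Ensembl identifier. Per the labels, HISAT2 2.2.1, HTSeq and GRCh38 were used; the annotation release and strand setting of the counting are not given in the sources used here, so counts of overlapping genes are uncertain. Rows without a gene held 13.2% to 16.4% of reads and were left out. Of 58676 identifiers, 58207 were matched to GENCODE 44.

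Counts were tested in edgeR 4.0.16 (R 4.3.3): TMM scaling, filterByExpr, 1 coefficient per group over the 8 libraries of a line (15744 genes in A549, 16080 in SUM159), glmQLFit and glmQLFTest, Benjamini-Hochberg adjustment, threshold 0.05. CPM used TMM-scaled totals. Departure from additivity was tested as combination minus palbociclib minus indisulam plus untreated. The procedure was tested on simulated counts. Alternatives were total-count and median-ratio scaling, TMM without the members, DESeq2 1.42.0, no filter, a replicate block, only the compared groups, and each library left out.

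Duplicates differed by more than sampling noise (chi-square per degree of freedom 1.59 to 9.13). Members and lists were chosen with earlier results of these data known. All 33 members are named. Library values are given for ACTB, ACTG1, ACTA2, CNN1 (as a range), FLNC, SRF and the members with the largest called changes in each role, and from each other list up to 4 genes with called changes are named. The result of 1 further gene list is not reported here.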

Additional observations from a re-analysis of the deposited data

Results flagged for a closer look

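Some members moved in opposite directions in the lines, with both treated libraries of one line above, and both of the other line below, their untreated libraries. The difference between lines was not tested for any of them. PDLIM5 did so with every treatment, where A549 had a log2 change of 0.23 and SUM159 one of -0.32 with palbociclib, followed by -0.20 and 0.12 for indisulam and by 0.12 and -0.19 for the combination. With indisulam, TPM4 had -0.24 in A549 and 0.17 in SUM159, and LIMA1 had 0.51 and -0.047. With the combination, MYL9 had -0.79 in A549 and 0.51 in SUM159. The regulatory light chains MYL12A, with 0.14 and -0.065, and MYL12B, with 0.15 and -0.14, also parted in that comparison. With total-count scaling the SUM159 values of LIMA1 with indisulam (0.0065) and of MYL12A (0.083) and MYL12B (0.0058) with the combination were positive, so that the opposite direction of these 3 depends on the scaling.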

How the results depend on the processing

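Of the A549 calls, 11 of 14 with palbociclib, 12 of 18 with indisulam and 16 of 25 with the combination were kept under every alternative run. Over all alternatives, member values in A549 lost a call 51 times and gained one 20 times, with the same sign. Signs that reversed are listed by their log2 value in that setting. With total-count scaling they were, in A549 with palbociclib, ACTN1 0.014, ACTN4 0.052, TPM2 0.027, VCL 0.0031, CAPZB 0.0067 and SRF 0.034, with indisulam CFL1 0.020 and CAPZB 0.00087, and with the combination ACTN4 0.010, CFL1 0.0071 and CAPZB 0.071. In SUM159 15 signs turned positive with that scaling. With palbociclib they were ACTN1 0.029, TAGLN2 0.042, TPM4 0.037, CNN2 0.011 and CAPZB 0.066, with indisulam MYH9 0.017, ZYX 0.042 and LIMA1 0.0065, and with the combination ACTN4 0.062, TPM1 0.116, MYL12A 0.083, MYL12B 0.0058, MYH9 0.071, ZYX 0.141 and PDLIM7 0.130. TLN1 with palbociclib in A549 had -0.0049 with median-ratio scaling, -0.0099 with DESeq2, -0.0061 without a filter and -0.013 with only the compared groups. VCL with indisulam had -0.0034, -0.0050 and -0.0022 in the first 3 of these. With 1 library left out, the A549 values that crossed 0 ran with palbociclib from -0.0379 to 0.0171 for ACTN4, from -0.036 to 0.148 for MYL6, from -0.045 to 0.048 for TLN1, from -0.017 to 0.131 for FHL2, from -0.0654 to 0.000102 for SRF, with indisulam from -0.0199 to 0.0403 for VCL, from -0.119 to 0.0055 for PFN1, from -0.049 to 0.00501 for CAPZB, and with the combination from -0.041 to 0.013 for CAPZB. The cause was not tested.

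The number of members past the additive sum in A549 was 8 without a filter and ran from 0 to 8 with 1 library left out (4 as reported). It was 0 without either indisulam library, 1 without either untreated library or palbociclib replicate 2, and 8 without combination replicate 2. In SUM159 it was 2 with DESeq2, 3 without a filter and from 0 to 5 with 1 library left out. The number of members past the threshold with indisulam against untreated cells in SUM159, 23 as given, was 15 with total-count scaling and from 14 to 19 with 1 library left out, 14 without indisulam replicate 1. With a library left out, its group's remaining library is assumed to vary like the others.

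Same-numbered libraries did not deviate together (correlations across genes from -0.114 to 0.114), so the numbers give no pairing. With the replicate number as a block, 14, 18, 25 and 4 members were called in A549 (palbociclib, indisulam, combination and departure from the sum) and 20, 21, 23 and 1 were past the threshold in SUM159, as a description. Members at a few CPM, such as TAGLN, MYL9, ACTA2 and FLNC, have the widest errors, and 2 technical duplicates per group limit all tests.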
